A study of Mus musculus with 9 samples.

Results

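The goblet cell genes described here are 10 of the 54146 genes in the deposited table: Muc2, Fcgbp, Clca1, Zg16, Tff3, Spink4, Retnlb, Agr2, Spdef and Muc4. They were chosen by symbol, each matched 1 row, and all 10 passed the filter on low values. This filter kept the 14410 genes that reached 10 normalized counts in 4 or more mice. Goblet cells are the mucus-secreting cells of the gut epithelium. They fold and glycosylate the gel-forming mucin in the secretory pathway, store it in granules, and release it with small peptides and mucus-associated proteins. In the colon, this secretion builds the mucus layer that keeps bacteria away from the epithelium.

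RNA-seq was performed on the colonic mucosa of 9 C57BL/6J mice at 15 wk of age, and each mouse was 1 replicate. The 5 ApcMin/+ mice (2 female, 3 male) carry the Min allele of Apc, a germline mutation that predisposes to intestinal tumors. The 4 ApcMin/+; p16cis/cis mice (3 female, 1 male) carry the same Apc allele and, on both copies of p16, a germline knock-in of a short element that attracts DNA methylation to the p16 promoter. Both alleles are present in every cell type, and no group with intact Apc was analyzed here. The comparison asks how the goblet cell genes of the mucosa differ between these genotypes.

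The libraries held 13523500 to 17885918 reads on genes. Cdkn2a, the gene that encodes p16, was listed at 0 in all 9 libraries and therefore does not check the genotype labels. Markers of epithelium were abundant in every mouse, with a summed normalized count of 192624 to 288325 over 8 genes. The 5 leukocyte markers summed to 114 to 1287 in ApcMin/+ mice and 191 to 329 in ApcMin/+; p16cis/cis mice. Of them, 2 were lower by the test used below (8.75% of all genes), and 3 by edgeR and by DESeq2 (9.05% and 10.1%). The mean was lower for 4 of the 5, and their median log2 difference was -1.56. The 7 stroma and muscle markers summed to 231 to 674 and 155 to 332. By the test, by edgeR and by DESeq2, 1, 1 and 3 of them were lower. The mean was lower for all 7, and their median was -1.47. No marker of either list was at 0 in all mice, and their part in the results below was not tested. Mitochondrially encoded genes took 8.74% to 15.6% of the reads in ApcMin/+ mice and 19.3% to 29.8% in ApcMin/+; p16cis/cis mice. These ranges do not overlap, so the mitochondrial share and the genotype cannot be told apart in this design. In bulk tissue, fewer goblet cells and less RNA per goblet cell cannot be told apart either.

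Spink4, a small secreted protease inhibitor of goblet cells, rose in ApcMin/+; p16cis/cis mice by 1.41 on the log2 scale, which is 2.65-fold. It was the only one of the 10 genes to pass the test, which was limma on log2(normalized count + 1) with an adjusted p-value under 0.05 over all genes tested. Muc2 itself differed by 0.17 on the same scale, with a 95% interval from -0.38 to 0.73. Among all genes tested, 8.14% passed as higher and 8.75% as lower, so 1 gene higher and 0 lower among 10 is close to that background. At an unadjusted p-value under 0.05, 4 goblet cell genes were higher and 1 was lower, 5 of 10 against 33.2% of all genes. edgeR called 1 gene higher and 1 lower (8.08% and 9.05% of all genes), and DESeq2 called 3 higher and 1 lower (8.9% and 10.1%).

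The mean was higher in ApcMin/+; p16cis/cis mice for 9 of the 10 genes, against 49.6% of all genes tested, and lower for Zg16. The median difference of the 10 genes was 0.35 on the log2 scale, and that of all genes tested was -0.0041. In none of the 10 genes were the genotypes free of overlap between mice, against 16.2% of all genes. Summed over the 10 genes, ApcMin/+ mice gave them 1.98% ± 0.37 of all reads (SD, n = 5), against 2.02% ± 0.51 (SD, n = 4) for ApcMin/+; p16cis/cis mice. Of the reads on nuclear genes alone, the shares were 2.26% ± 0.46 and 2.68% ± 0.72. The difference between the genotypes was smaller than the spread between mice on both measures.

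**Figure D1:**
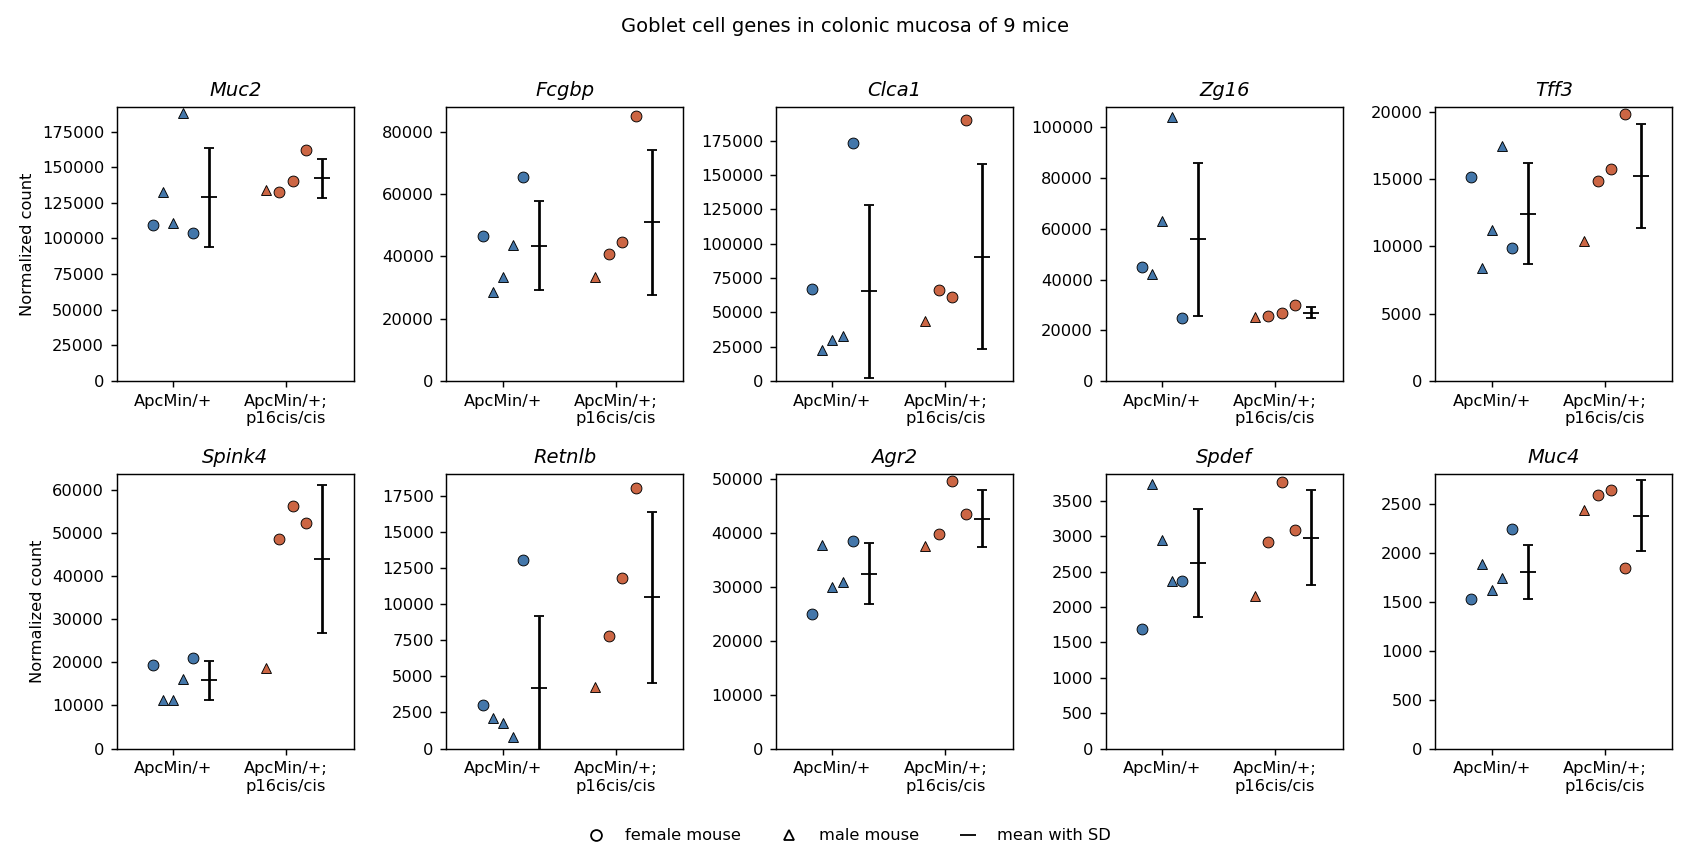
Normalized count of the 10 goblet cell genes in each of 5 ApcMin/+ mice (blue) and 4 ApcMin/+; p16cis/cis mice (orange), with females as circles, males as triangles, and the mean with its SD beside them, where the SD bar of Retnlb in ApcMin/+ mice is cut at 0. The 3 female ApcMin/+; p16cis/cis mice sit at 48529 or above for Spink4 while all other mice sit at 21034 or below, and the genotypes overlap in every panel.

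Muc2 encodes the gel-forming mucin that makes up the colonic mucus. It is listed as ENSMUSG00000025515.15, and in GRCm38 it lies on chromosome 7 from 141690340 to 141754693 on the plus strand. Its normalized count was 109324, 132664, 111030, 187680 and 103949 in ApcMin/+ mice 1 to 5 and 133887, 132550, 140470 and 162301 in ApcMin/+; p16cis/cis mice 1 to 4. All 9 mice were within 1.81-fold of one another, and ApcMin/+ mouse 4 was the highest. The means were 128930 ± 34621 (SD, n = 5) and 142302 ± 13775 (SD, n = 4), a log2 difference of 0.17 (SE 0.25), with an adjusted p of 0.675 by limma and p = 0.381 by an exact two-sided permutation test. The 95% interval runs from 0.768-fold to 1.66-fold.

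Fcgbp, Clca1 and Zg16 encode proteins secreted into the same mucus. Fcgbp (ENSMUSG00000047730.17, chromosome 7 from 28071236 to 28120862, plus strand) binds to and stabilizes the mucin network. It had normalized counts of 46447, 28716, 33286, 43619 and 65294 in ApcMin/+ mice and 33272, 40729, 44544 and 85099 in ApcMin/+; p16cis/cis mice. The genotypes overlapped almost completely, and the highest value in each was well above the rest. The log2 difference was 0.19 (SE 0.30, limma adjusted p = 0.696), and it was -0.089 without ApcMin/+; p16cis/cis mouse 4 alone. Clca1 (ENSMUSG00000028255.6, chromosome 3 from 145003817 to 145032776, minus strand), a secreted metalloprotease that processes the mucus, was more variable. Its values were 67167, 22725, 30075, 32816 and 173656 in ApcMin/+ mice and 43727, 66235, 61347 and 190268 in ApcMin/+; p16cis/cis mice. In each genotype, 1 female held a level far above the others. On the log2 scale, the difference was 0.66 (SE 0.57, interval -0.58 to 1.90), with a limma adjusted p of 0.458. With sex as a covariate, the difference was 0.099 (limma adjusted p = 0.904).

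Zg16, a small lectin that binds bacterial cell walls in the mucus, was the only goblet cell gene with a lower mean in ApcMin/+; p16cis/cis mice. It is listed as ENSMUSG00000049350.6 and lies on chromosome 7 from 127050156 to 127087328 on the minus strand. Normalized counts were 45079, 41984, 62933, 104019 and 24857 in ApcMin/+ mice and 25119, 25511, 26953 and 29983 in ApcMin/+; p16cis/cis mice. The latter 4 mice lay close together, below 4 of the 5 ApcMin/+ mice and slightly above the fifth. The means were 55775 ± 30163 (SD, n = 5) and 26892 ± 2207 (SD, n = 4), and the coefficient of variation was 54.1% and 8.21%. The fitted log2 difference was -0.89 (SE 0.32, interval -1.60 to -0.19), with a limma adjusted p of 0.0775 and an exact permutation p of 0.0635. This gene lies near the threshold: its adjusted p was 0.0439 by edgeR, 0.0444 by DESeq2, and 0.0208 by limma without ApcMin/+ mouse 5. It was 0.0711 to 0.161 without any other single mouse. In females only, the difference was -0.29 (adjusted p = 0.531), and with the mitochondrial share as a covariate it was -0.37 (adjusted p = 0.938).

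Tff3, Spink4 and Retnlb encode small secreted peptides. Tff3 (ENSMUSG00000024029.4, chromosome 17 from 31125306 to 31129646, minus strand), the intestinal trefoil factor, takes part in epithelial repair. Its normalized counts were 15168, 8411, 11199, 17456 and 9902 in ApcMin/+ mice and 10400, 14888, 15722 and 19792 in ApcMin/+; p16cis/cis mice. The values overlapped, and the log2 difference was 0.31 (SE 0.23, limma adjusted p = 0.391). Its direction turned to -0.13 once values were corrected for GC and length.

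Spink4 (ENSMUSG00000028415.4) lies on chromosome 4 from 40920052 to 40931395 on the plus strand. Its normalized count was 19272, 11267, 11205, 16089 and 21034 in ApcMin/+ mice and 18668, 48529, 56269 and 52382 in ApcMin/+; p16cis/cis mice. The 3 female ApcMin/+; p16cis/cis mice were higher than any other mouse, whereas the male of that genotype was within the range of ApcMin/+ mice. The means were 15774 ± 4505 (SD, n = 5) and 43962 ± 17156 (SD, n = 4). The log2 difference was 1.41 (SE 0.32, interval 0.71 to 2.10), with a limma adjusted p of 0.0139 and an exact permutation p of 0.0238. Of all genes tested, 1.83% were likewise higher with a fold over 2.

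Within each sex, all ApcMin/+; p16cis/cis mice had more Spink4 than the ApcMin/+ mice. The females ranged from 19272 to 21034 in ApcMin/+ and from 48529 to 56269 in ApcMin/+; p16cis/cis mice. Males reached 16089 in ApcMin/+ mice, and the only male of the other genotype was at 18668. On the log2 scale, the difference was 1.06 with sex as a covariate (limma adjusted p = 0.0128) and 1.38 in females only (adjusted p = 0.0124). Leaving out each mouse in turn gave differences of 1.25 to 1.78 with adjusted p-values of 0.00323 to 0.0493. The call held in 21 of 23 alternative fits. With values corrected for GC and length, the difference was 0.79 (adjusted p = 0.0902), and the mean transcript length of Spink4 is 310 bases against a median of 1751 over all genes tested. With the mitochondrial share as a covariate, it was -0.045, and 0 of the 14410 genes passed in that fit by limma, with 798 at an unadjusted p-value under 0.05.

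Retnlb (ENSMUSG00000022650.7, chromosome 16 from 48816856 to 48818892, plus strand) encodes RELMβ, a goblet cell peptide that acts against bacteria. It had normalized counts of 3014, 2147, 1773, 806 and 13084 in ApcMin/+ mice and 4267, 7810, 11814 and 18072 in ApcMin/+; p16cis/cis mice. ApcMin/+ mouse 5 was far above the other 4 mice of its genotype, which were all lower than every ApcMin/+; p16cis/cis mouse. The fitted log2 difference was 1.81 (SE 0.65, interval 0.41 to 3.22), the widest interval of the 10 genes, with a limma adjusted p of 0.073 and an exact permutation p of 0.0794. Among the fits that left out 1 mouse, Retnlb passed only without ApcMin/+ mouse 5, with a difference of 2.40 (limma adjusted p = 0.011). The difference was smaller by edgeR (1.33, adjusted p = 0.188), with sex as a covariate (1.16, limma adjusted p = 0.119) and in females only (0.92, limma adjusted p = 0.315). With the mitochondrial share as a covariate, the difference was -0.031.

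**Figure D2:**
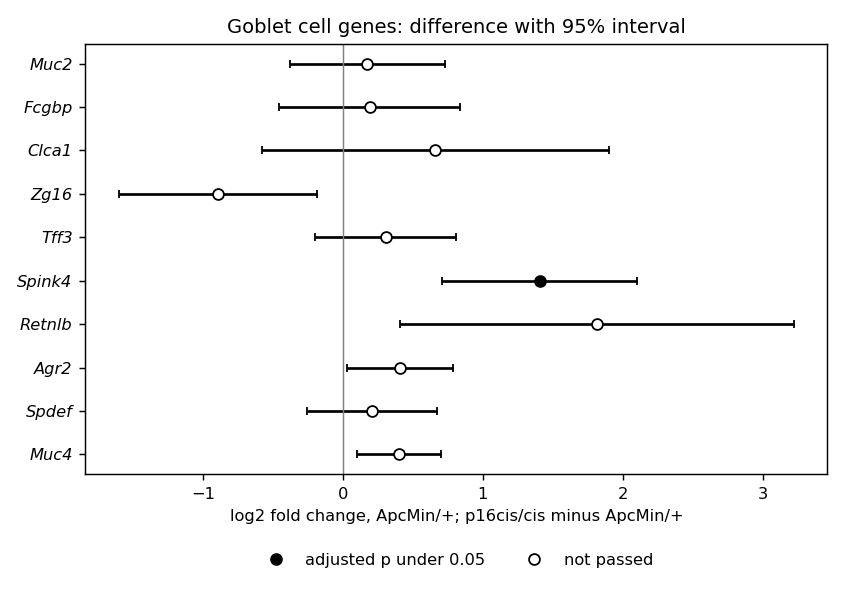
Difference in log2(normalized count + 1), ApcMin/+; p16cis/cis minus ApcMin/+, for each goblet cell gene, with the 95% interval from limma over 9 mice (filled points passed at an adjusted p-value under 0.05, open points did not). Only the point of Spink4 is filled, at 1.41, and Zg16 is the only gene left of 0, at -0.89.

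Agr2 (ENSMUSG00000020581.11, chromosome 12 from 35992907 to 36004087, plus strand) encodes a disulfide isomerase of the endoplasmic reticulum that is needed to fold Muc2. Normalized counts were 25050, 37825, 29970, 30867 and 38588 in ApcMin/+ mice and 37608, 39917, 49717 and 43583 in ApcMin/+; p16cis/cis mice. The lowest ApcMin/+; p16cis/cis mouse was just below the highest 2 ApcMin/+ mice. The log2 difference was 0.41 (SE 0.17, interval 0.03 to 0.78), with a limma adjusted p of 0.125 and an exact permutation p of 0.0556, while DESeq2 gave an adjusted p of 0.048.

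Spdef (ENSMUSG00000024215.13, chromosome 17 from 27714352 to 27728955, minus strand) encodes the transcription factor that drives goblet cell maturation. Its normalized counts were 1693, 3744, 2954, 2364 and 2364 in ApcMin/+ mice and 2157, 2916, 3778 and 3089 in ApcMin/+; p16cis/cis mice. The ranges nearly coincided, and the log2 difference was 0.21 (SE 0.21, limma adjusted p = 0.535).

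Muc4 (ENSMUSG00000079620.13, chromosome 16 from 32735886 to 32782391, plus strand) encodes a membrane-bound mucin of goblet and other epithelial cells. Its normalized count was 1529, 1887, 1618, 1747 and 2242 in ApcMin/+ mice and 2435, 2591, 2646 and 1850 in ApcMin/+; p16cis/cis mice. In this gene, ApcMin/+; p16cis/cis mouse 4 was the lowest of its genotype, and the other 3 mice were above every ApcMin/+ mouse. On the log2 scale, the difference was 0.40 (SE 0.14, interval 0.10 to 0.70), with a limma adjusted p of 0.0671 and an exact permutation p of 0.0476. The adjusted p was 0.0344 without ApcMin/+ mouse 5 and 0.0388 without ApcMin/+; p16cis/cis mouse 4. With all 9 mice, Muc4 also passed by DESeq2 and with upper-quartile scaling (adjusted p = 0.0483 in each) and with values corrected for GC and length (adjusted p = 0.0448), so the call turns on the method as well as on either mouse.

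The spread between mice differed widely among the 10 genes. In ApcMin/+ mice, the coefficient of variation was 15.5% for Muc4, 17.6% for Agr2 and 26.9% for Muc2, and it was 96.4% for Clca1 and 121% for Retnlb. The highest mouse exceeded the lowest by 1.47-fold for Muc4 and by 16.2-fold for Retnlb. In ApcMin/+; p16cis/cis mice, Zg16 (8.21%) and Muc2 (9.68%) varied least, and Clca1 (74.4%) varied most. ApcMin/+ mouse 5, a female, was the highest of its genotype for 6 of the 10 genes. In the other genotype, mouse 4, a female, was the highest for 6 genes, and mouse 1, the only male, was the lowest for 8.

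The sexes are unevenly split between the genotypes, and the levels of some goblet cell genes divided by sex. Clca1 and Spink4 were higher in each of the 5 females than in each of the 4 males, 2 of 10 genes against 0.867% of all genes tested. No goblet cell gene was higher in every male than in every female. In the limma fit with sex as a covariate, the male level minus the female level on the log2 scale was -1.60 for Clca1 (adjusted p = 0.710), -1.87 for Retnlb (adjusted p = 0.604), -0.98 for Spink4 (adjusted p = 0.272) and -0.68 for Fcgbp (adjusted p = 0.992). None of the 10 genes passed for sex in this fit (0.0486% of all genes did), and 4 had an unadjusted p-value under 0.05, against 4.38% of all genes. The comparison by sex was chosen after the values were seen.

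**Figure D3:**
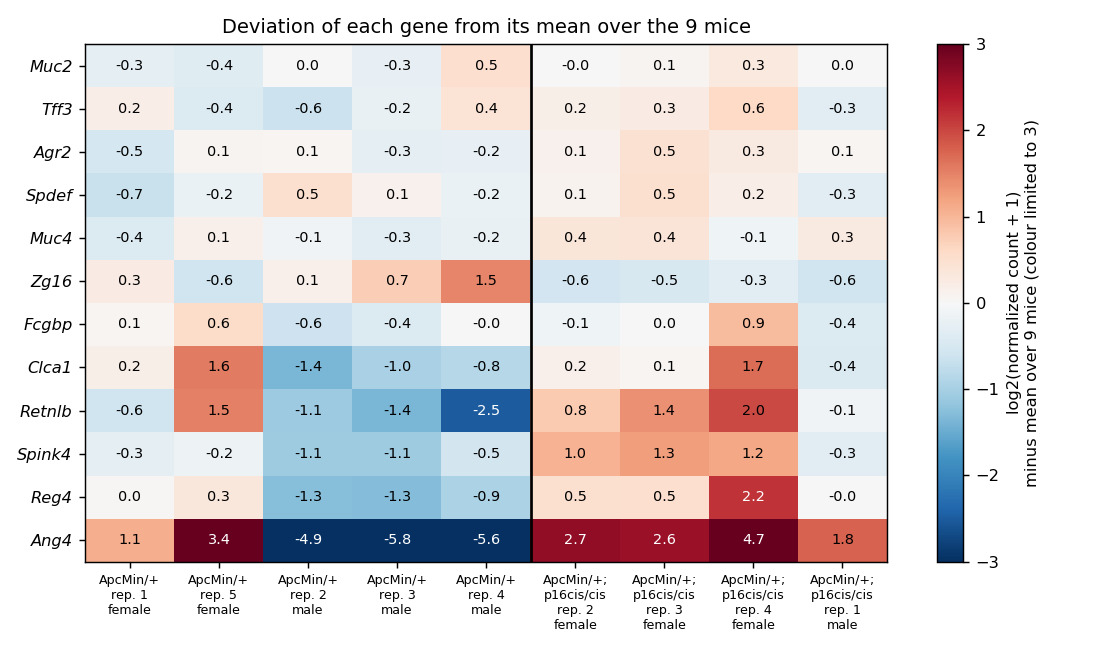
Deviation of log2(normalized count + 1) from its mean over the 9 mice for the 10 goblet cell genes and for Reg4 and Ang4, with 1 column per mouse, ApcMin/+ mice left of the line and ApcMin/+; p16cis/cis mice right of it, females before males within each genotype. Clca1, Retnlb, Spink4, Reg4 and Ang4 are below their mean in the 3 male ApcMin/+ mice, and Muc2, Tff3, Agr2, Spdef and Muc4 stay within 0.7 of their mean in all 9 mice.

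Levels of different genes were compared per kb, with the mean transcript length of each gene in GENCODE M21. In ApcMin/+ mice, Muc2 ranked 1st with 100442 ± 26971 normalized counts per kb (SD, n = 5), followed by Zg16 with 92228 ± 49877 and Spink4 with 50883 ± 14533. Clca1, Agr2 and Tff3 came next, then Fcgbp with 9997 and Retnlb with 5984. Spdef with 1953 and Muc4 with 477 were the lowest. The ranges over mice of neighbors in this order overlapped, except between Tff3 and Fcgbp and between Spdef and Muc4. In ApcMin/+; p16cis/cis mice, Spink4 ranked 1st with 141813 ± 55343 per kb (SD, n = 4) and Muc2 ranked 2nd with 110859 ± 10731, and their ranges overlapped. Zg16 ranked 5th with 44468 ± 3649. With the longest transcript in place of the mean, Zg16 ranked before Muc2 in ApcMin/+ mice, and Spink4 remained 1st in ApcMin/+; p16cis/cis mice. The longest Muc2 transcript in this annotation has 2926 bases and the mean is 1284, so the per kb level and rank of Muc2 are uncertain. With the longest transcript, Muc2 was at 44063 per kb in ApcMin/+ mice. The longest transcripts of Clca1, Fcgbp and Muc4 have 3655, 7928 and 11277 bases, against means of 1515, 4348 and 3782. Their per kb levels depend on this choice as well.

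Mucin apoproteins are decorated by glycosyltransferases and sulfated in the Golgi before secretion. Of 32 genes tested for mucin glycosylation and sulfation, 13 fell, 2 rose and 17 did not pass the limma test. The falling genes were 40.6% of the list, against 8.75% of all genes, and the list median was -0.45 on the log2 scale, against -0.0041 for all genes. The falls ranged from -0.45 to -1.41, and 8 of the 32 genes were lower without overlap between the genotypes, against 8.95% of all genes. The list holds enzymes that other epithelial cells also use.

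Gcnt3, which makes the branched core structures of mucin glycans, fell the most. It had normalized counts of 4702, 6428, 5630, 5157 and 4825 in ApcMin/+ mice and 2137, 2179, 2625 and 1319 in ApcMin/+; p16cis/cis mice. The genotypes did not overlap, and the log2 difference was -1.41 (SE 0.18, limma adjusted p = 0.00172), a call that held in 22 of 23 alternative fits. B4galnt2, which caps intestinal glycans with N-acetylgalactosamine, was the only other gene of the list to pass with a fall of over 2-fold (1.64% of all genes), with a log2 value of -1.05 (adjusted p = 0.0251). B3gnt6, the core 3 synthase, had a log2 value of -1.04 but did not pass (adjusted p = 0.0875). Gcnt4, a related branching enzyme, had a log2 value of -0.97 (adjusted p = 0.0229). C1galt1c1, the chaperone of the core 1 synthase, had a log2 value of -0.81 (adjusted p = 0.00865). The call of B4galnt2 was lost without ApcMin/+ mouse 2 or 3 and without ApcMin/+; p16cis/cis mouse 1, 2 or 4, and that of Gcnt4 without ApcMin/+ mouse 2 and without ApcMin/+; p16cis/cis mouse 2 or 4.

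The core 1 synthase C1galt1 itself had a log2 value of -0.68 (limma adjusted p = 0.00685). Normalized counts were 4388, 5609, 5054, 4132 and 5882 in ApcMin/+ mice and 3446, 2771, 3349 and 2912 in ApcMin/+; p16cis/cis mice, without overlap. The Galnt genes encode the enzymes that attach the first sugar to the mucin. Of the 8 tested, 5 fell, against 8.75% of all genes, led by Galnt7 at -0.68 (adjusted p = 0.00571). Galnt7 kept its call in 21 of 23 alternative fits, and Galnt3 kept it in 8. The sulfate transporter Slc26a2 (-0.65, adjusted p = 0.00909) and Papss2, which makes the sulfate donor (-0.66, adjusted p = 0.0147), fell as well. C1galt1, Galnt7, Slc26a2 and Papss2 were named after their values were seen. The sialyltransferase genes St3gal6 (0.56, adjusted p = 0.0224) and St6galnac2 (0.47, adjusted p = 0.0444) rose, with calls that held in 16 and 11 of 23 alternative fits.

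All 13 of these genes had lower values in ApcMin/+; p16cis/cis mice under each of the 23 alternatives, but the number that passed as lower depended on the fit. It was 7 with values corrected for GC and length (6.08% of all genes in that fit), 6 in females only (2.63%) and 4 relative to the 8 epithelial markers (2.53%). With the mitochondrial share as a covariate it was 0 by limma, as for all genes (0%). In that fit, 3 of the 32 listed genes had an unadjusted p-value under 0.05, against 798 of all 14410 genes. It was 8 without ApcMin/+ mouse 2 (5% of all genes), 8 without ApcMin/+; p16cis/cis mouse 2 (4.77%) and 6 without ApcMin/+; p16cis/cis mouse 4 (4.5%). The part of the mitochondrial share in these falls was not tested apart from genotype.

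**Figure D4:**
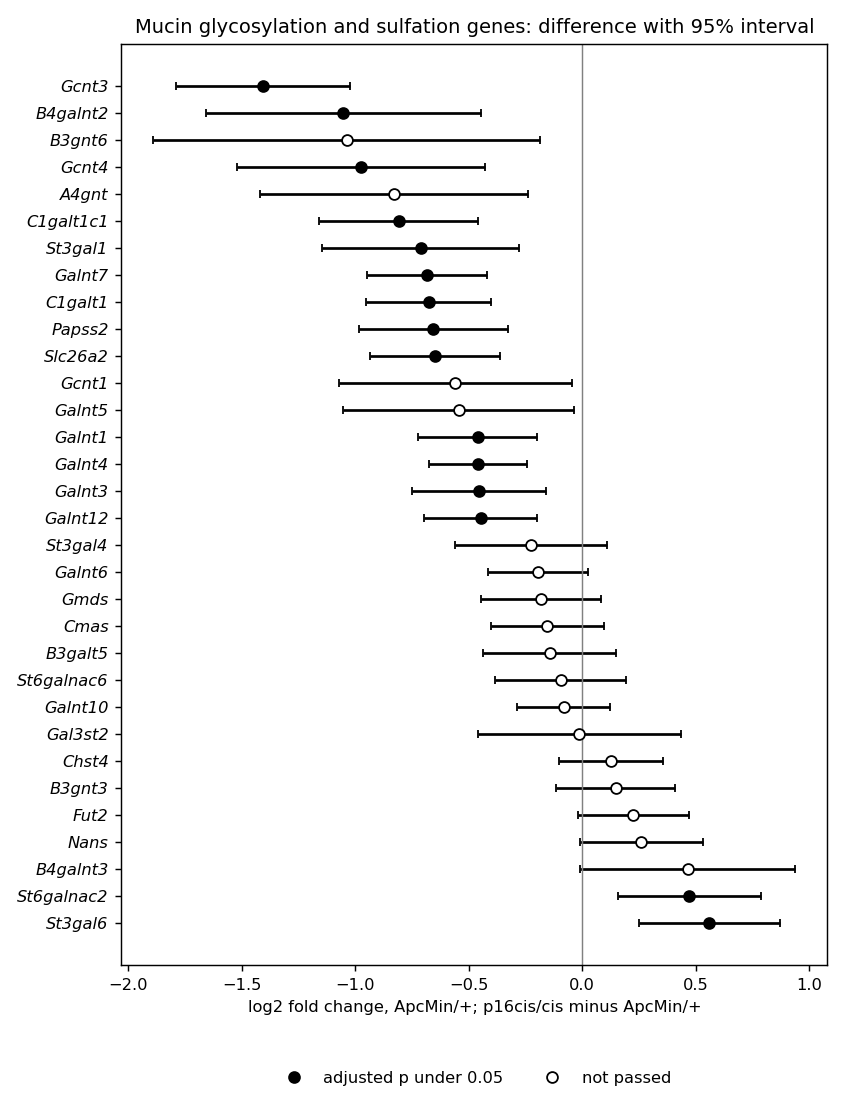
Difference in log2(normalized count + 1), ApcMin/+; p16cis/cis minus ApcMin/+, for the 32 mucin glycosylation and sulfation genes tested, with the 95% interval from limma over 9 mice (filled points passed at an adjusted p-value under 0.05). The 13 filled points left of 0 run from -0.45 to -1.41 for Gcnt3, and the 2 filled points right of 0 are St6galnac2 and St3gal6.

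Of 11 regulators of the secretory lineage tested, 1 passed as higher and 0 as lower by limma, by edgeR and by DESeq2. Of all genes, 8.14% and 8.75% did by limma, 8.08% and 9.05% by edgeR, and 8.9% and 10.1% by DESeq2. At an unadjusted p-value under 0.05 in limma, 3 regulators were higher and 0 lower, against 2335 and 2444 of all 14410 genes. Creb3l1, an endoplasmic reticulum stress transducer that promotes secretory capacity, rose. Its normalized counts were 13074, 12589, 11013, 12795 and 10520 in ApcMin/+ mice and 18500, 16382, 22755 and 18841 in ApcMin/+; p16cis/cis mice. The genotypes did not overlap, and the log2 difference was 0.67 (SE 0.13, limma adjusted p = 0.00814). The call held in 21 of 23 alternative fits and was lost in females only and with the mitochondrial share as a covariate. Atoh1, the factor that specifies secretory cells, had a log2 value of -0.21 (adjusted p = 0.467) and was named after its values were seen.

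Of 16 genes for protein folding in the secretory pathway, 0 passed by limma. At an unadjusted p-value under 0.05, 1 was higher and 2 were lower, against 2335 and 2444 of all 14410 genes. edgeR and DESeq2 each called 1 lower (9.05% and 10.1% of all genes). Calr and Pdia3, the most abundant of them, had log2 values of 0.15 (adjusted p = 0.584) and -0.13 (adjusted p = 0.578). Agr2, the folding enzyme among the goblet cell genes, had a higher estimate than both. Creld2 of this list had a higher one than Agr2, at 0.49 (limma adjusted p = 0.111). Differences between these genes were not tested.

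Of the other mucin and trefoil genes, 8 were tested, and 1 passed as higher and 0 as lower by limma (8.14% and 8.75% of all genes). By edgeR it was also 1 and 0 (8.08% and 9.05%), while DESeq2 called 3 higher and 1 lower (8.9% and 10.1%). Muc3a, a membrane mucin of enterocytes, rose by 0.76 on the log2 scale (limma adjusted p = 0.0183), from 3481 to 6326 in ApcMin/+ mice to 5526 to 8349 in ApcMin/+; p16cis/cis mice. The call was lost without ApcMin/+; p16cis/cis mouse 2 and without mouse 4. The table lists a closely related gene, Muc3, so the split of reads between them is uncertain. Muc5ac and Tff1, a gel-forming mucin and a trefoil factor of the stomach, were listed at or near 0 in all mice, with at most 3.35 normalized counts.

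Of 8 tested relatives of the goblet cell genes, 1 passed as higher and 1 as lower by limma, against 8.14% and 8.75% of all genes. Clca3a1 rose by 1.44 (limma adjusted p = 0.0235), and Clca4a fell, with a log2 value of -1.15 (adjusted p = 0.0466). Similar copies of these chloride channel accessory genes may share their reads, which was not tested, so their levels are uncertain. The call of Clca3a1 was lost with sex as a covariate and without ApcMin/+; p16cis/cis mouse 2 or 4. That of Clca4a held in 10 of 23 alternative fits and was lost by edgeR, by DESeq2, and without ApcMin/+ mouse 1, 3 or 5 or ApcMin/+; p16cis/cis mouse 1, 2 or 4.

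Among 11 further goblet and deep crypt secretory genes, 2 rose and 1 fell by limma, against 8.14% and 8.75% of all genes. By edgeR the counts were also 2 and 1 (8.08% and 9.05%), while DESeq2 called 1 higher and 3 lower (8.9% and 10.1%). Reg4, a lectin of deep crypt secretory cells, had a normalized count of 19569, 7995, 7790, 9999 and 24376 in ApcMin/+ mice and 18976, 27070, 27365 and 87046 in ApcMin/+; p16cis/cis mice. ApcMin/+; p16cis/cis mouse 4 was far above the rest, and the genotypes overlapped. The fitted log2 difference was 1.42 (SE 0.45), with a limma adjusted p of 0.0483. Tpsg1, a tryptase gene, rose by 0.60 (adjusted p = 0.0275), and Rep15, a Rab15 effector of goblet cells, fell with a log2 value of -0.78 (adjusted p = 0.00948). The calls of Reg4 and Tpsg1 held in 11 and 14 of 23 alternative fits, and both were lost with sex as a covariate and without ApcMin/+ mouse 2, ApcMin/+ mouse 3, or ApcMin/+; p16cis/cis mouse 3 or 4. Both were also lost with values corrected for GC and length, and Reg4 was lost by DESeq2 and with a pseudocount of 0.1. Rep15 kept its call in 21 of 23 alternative fits and lost it in females only and with the mitochondrial share as a covariate.

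Of 40 further epithelial and position markers tested, 1 passed as higher (2.5%) and 3 as lower (7.5%) by limma, against 8.14% and 8.75% of all genes. None of the 8 general epithelial markers passed, although DESeq2 called 1 higher and 2 lower (8.9% and 10.1% of all genes). In limma, 3 had an unadjusted p-value under 0.05 (33.2% of all genes). Of the 7 absorptive colonocyte markers, only Slc26a3, a chloride exchanger, passed, with a log2 value of -1.23 (adjusted p = 0.00848). Of 5 enteroendocrine markers, Chga (-0.69, adjusted p = 0.0373, held in 14 of 23 alternative fits) and Chgb (-1.11, adjusted p = 0.00846) fell, 40% against 8.75% of all genes. Of 5 cycling cell markers, Mki67 rose by 0.92 (adjusted p = 0.00656). Slc26a3, Chgb and Mki67 each kept their call in 21 of 23 alternative fits. All of them lost it in females only and with the mitochondrial share as a covariate. None of the 5 crypt base stem cell, 4 tuft cell, 3 Paneth cell and 3 distal colon markers tested passed by limma, edgeR or DESeq2. At an unadjusted p-value under 0.05, 3, 0, 1 and 2 of them were higher in limma, against 2335 of all 14410 genes.

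Relative to the mean of the 8 epithelial markers in each mouse, Spink4 differed by 1.51 on the log2 scale (limma adjusted p = 0.0062), and the median of the 10 goblet cell genes was 0.45. This scaling raised the median of all genes from -0.0041 to 0.095, and it raised the share of higher genes among those that passed from 48.2% to 74.5%.

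The genes whose levels followed Muc2 most closely over the 9 mice were not goblet cell genes of the list. Among 12841 protein-coding genes tested, Pearson's r on the log2 scale was highest for Tmem150a (0.967), Mtfr1l (0.952), Ebpl (0.940), Tnk1 (0.938) and Tssk4 (0.936). Spearman's rho was 0.817, 0.967, 0.917, 0.917 and 0.933 for the same genes. Among the goblet cell genes, r with Muc2 was highest for Tff3 (0.58) and Zg16 (0.34) and lowest for Retnlb (-0.17). These values describe 9 mice of both genotypes whose libraries share their depth and normalization, and the top genes were picked from many.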

How the data were processed

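RNA depleted of rRNA and selected with oligo dT, from the colonic mucosa of 9 mice, was sequenced on the BGISEQ-500 platform. The methods name colonic crypts as its source, BOWTIE2 for alignment, RSEM for gene levels and DESeq2 for the test between genotypes. Versions, build and annotation are not given in the sources used here. The values the authors deposited are a normalized signal: counts per gene that DESeq2 had scaled by the size factors of the libraries. Dividing by the value of 1 read gave whole reads (within 0.01) for 100% of the positive values, 13523500 to 17885918 per mouse. Counting precision covers counting error only, and at these levels the spread between mice is the larger error.

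A count test had been planned as an alternative and was run on the recovered reads. The main test was limma 3.58.1 (R 4.3.3, trended variances), run on log2(normalized count + 1) of genes that reached 10 in 4 or more mice, with genotype as the only term, all 9 mice and Benjamini-Hochberg adjustment over all 14410 genes. "Passed" means an adjusted p-value under 0.05. Single genes were also compared by exact two-sided permutation of the log2 values over all splits into 5 and 4 mice (smallest possible p 0.00794). Intervals are 95%. Alternatives were edgeR 4.0.16 (quasi-likelihood), DESeq2 1.42.0, TMM, upper-quartile and nuclear scaling, other filters, a pseudocount of 0.1, sex or mitochondrial share as a covariate, females only, the replicate number as a block, each mouse left out, and Bonferroni adjustment. The GC and length correction (loess, span 0.5, per mouse) and the scaling to epithelial markers were chosen after seeing the data. Counts out of 23 alternative fits include both of these and leave out Bonferroni adjustment.

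Coordinates, transcript lengths and GC were taken from GENCODE M21 (GRCm38), which held 54079 of the 54146 identifiers. No nucleotide sequence is shown, since none carries a result. The goblet cell genes and all gene lists were chosen with earlier results of these data known. Named genes are the 10 goblet cell genes, in each other pathway list the genes that passed (up to 4 with the largest difference, otherwise the 2 most abundant), and the 5 genes most like Muc2. Apart from Cdkn2a, all other genes named were chosen after their values were seen. Same-numbered mice of the genotypes are different animals, and their deviations from the group means correlated by -0.175 to 0.142, so numbers were not used as pairs. The procedure was tested on simulated data.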

Additional observations from a re-analysis of the deposited data

Results flagged for a closer look

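In 22 groups of mice checked on normalized counts, 2 held a mouse far from the rest of its genotype. Chance flags about 1 in 20 groups if values are normally distributed, which was not tested. Clca1, the mucus-processing protease gene, had a normalized count of 190268 in ApcMin/+; p16cis/cis mouse 4, a female. The gap to the next mouse was 0.846 of the whole range of the 4 mice, against a critical value of 0.829. Retnlb, the gene of a bactericidal goblet cell peptide, had a normalized count of 13084 in ApcMin/+ mouse 5, also a female. The gap was 0.820 of the range of the 5 mice, against a critical value of 0.710. On the log2 scale used for the tests, both gaps are a smaller part of the range, so the flags hold for normalized counts only. The same ApcMin/+ mouse had the highest Clca1 of its genotype, at 173656, and the same ApcMin/+; p16cis/cis mouse had the highest Retnlb, at 18072.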

How the results depend on the processing

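Spink4 kept its direction and its call in 21 of 23 alternative fits, and the call was lost with values corrected for GC and length and with the mitochondrial share as a covariate. It was also lost with Bonferroni adjustment, which is not among the 23. The number of goblet cell genes that passed as higher was 3 by DESeq2 (8.9% of all genes), 2 with upper-quartile scaling (9.63%), 0 with the mitochondrial share (0%) and 0 with Bonferroni adjustment (0.0347%). Corrected for GC and length it was 1 (5.96%), but that gene was Muc4 (0.46, adjusted p = 0.0448) in place of Spink4. Leaving out each mouse gave 1 to 3 (3.71% to 11.7%), with 3 without ApcMin/+ mouse 5 (6.61%) and 2 without ApcMin/+; p16cis/cis mouse 4 (3.71%). The number that passed as lower was 1 by edgeR (9.05%), 1 by DESeq2 (10.1%) and 1 corrected for GC and length (6.08%), and 0 to 1 with each mouse left out (4.5% to 12.5%). With the replicate block, 3 goblet cell genes passed as higher (Spink4, Retnlb and Muc4, 6.79% of all genes) and 1 as lower (Zg16, 7.6%). The shared numbers do not pair the mice. Number 5 occurs only in ApcMin/+ mice, so the block gave the same differences as leaving out ApcMin/+ mouse 5. Both fits are counted among the 23 alternatives.

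With the mitochondrial share as a covariate, the median of the goblet cell genes was -0.038, and the log2 difference was -0.64 for Fcgbp, -1.34 for Clca1, -0.26 for Tff3, -0.045 for Spink4 and -0.031 for Retnlb. In females only, it was -0.038 for Fcgbp, -0.23 for Clca1, -0.29 for Zg16, 0.92 for Retnlb and 0.70 for Spdef (unadjusted p = 0.0041, limma adjusted p = 0.0564). It was -0.046 for Fcgbp with sex as a covariate and -0.13 for Tff3 corrected for GC and length. Fcgbp ranged from -0.089 to 0.36 with each mouse left out. The glycosylation genes that passed as lower numbered 6 in females only (2.63% of all genes), 0 with the mitochondrial share (0%) and 7 corrected for GC and length (6.08%). They numbered 4 relative to epithelial markers (2.53%) and 6 to 15 with each mouse left out (4.5% to 12.5%). The goblet cell share in ApcMin/+; p16cis/cis mice was 2.68% of nuclear reads. The cause of these shifts was not tested. With 5 and 4 mice, the intervals of Clca1 and Retnlb are wide, and depth is not the limit at these levels.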

Other observations

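Ang4, the gene of a secreted antimicrobial ribonuclease of the crypt, varied more than any goblet cell gene, and was picked after its values were seen. Its normalized count was 3609, 57, 29, 34 and 18151 in ApcMin/+ mice and 5747, 10664, 10172 and 45249 in ApcMin/+; p16cis/cis mice. The 3 lowest values were those of the 3 male ApcMin/+ mice. Of the 2 females of that genotype, 1 at 3609 was below every ApcMin/+; p16cis/cis mouse, and the other at 18151 was within their range. The log2 difference was 5.28 (SE 1.71), with a limma adjusted p of 0.0532. Itln1, an intestinal lectin gene, was likewise picked after its values were seen. It ranged from 39 to 50 in male ApcMin/+ mice and from 109 to 1037 in the females, with a log2 difference between genotypes of 1.97 (limma adjusted p = 0.126). In the fit with sex as a covariate, male minus female on the log2 scale was -5.33 for Ang4 (adjusted p = 0.272) and -2.50 for Itln1 (adjusted p = 0.510). ApcMin/+ mouse 5 and ApcMin/+; p16cis/cis mouse 4 held the highest value of their genotype for Ang4, Itln1, Reg4, Clca1, Fcgbp and Retnlb.

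Of 138 listed genes tested beside the goblet cell genes, 21 did not overlap between the genotypes (15.2%, against 16.2% of all genes), and 5 of these missed the threshold. Foxa3, a transcription factor gene of the secretory lineage, had normalized counts of 697 to 966 in ApcMin/+ mice and 982 to 1268 in ApcMin/+; p16cis/cis mice (log2 difference 0.34, limma adjusted p = 0.0737). Clca3a2, a relative of Clca1 whose reads similar copies may share, had 29 to 180 and 197 to 329 (log2 difference 1.17, limma adjusted p = 0.0878). The log2 difference was 0.26 for Nans, a sialic acid synthase gene (limma adjusted p = 0.167), -0.33 for Sytl2, a gene of vesicle trafficking (adjusted p = 0.0555), and -0.38 for Epcam, an epithelial adhesion gene (adjusted p = 0.0938). All 5 were named after their values were seen.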
